A study of Mus musculus with 10 samples.

Results

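A group of 10 genes of secreted antimicrobial defence and of the neutrophil granule was examined: Ltf, Ngp, Lcn2, S100a8, S100a9, Lyz1, Lyz2, Slpi, Wfdc2 and Reg3g. They were chosen by symbol, with earlier results of these data known, as rows of a table of 47333 mouse genes, and all 10 were found. The RNA came from the right middle lung lobe of 10 untreated mice on the C57BL/6J background, aged 12 weeks. Of these, 5 mice had lost the gene Bpifb1 (KO, 1 male and 4 females) and 5 were wild type (WT, 2 males and 3 females). Cages held both genotypes, and the labels give no sequencing batch and do not describe the allele. Whether the mice of a genotype were littermates is not given either.

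These genes make up much of the chemical defence of the airway lining. Lysozymes cut the cell wall of bacteria. Lactoferrin (Ltf) and lipocalin-2 (Lcn2) withhold iron, the first by binding it directly and the second by binding bacterial siderophores. S100a8 and S100a9 form calprotectin, a complex that binds zinc and manganese and makes up much of the neutrophil cytosol. Slpi and Wfdc2 belong to the family of whey acidic proteins, and Slpi inhibits neutrophil elastase. Reg3g encodes a lectin that binds the wall of Gram-positive bacteria, and Ngp a neutrophil granule protein related to the cathelicidins. Neutrophils store several of these proteins ready-made in granules, and the mRNA of granule proteins is made mostly by their precursors in the bone marrow, so that mature neutrophils in a tissue can hold the protein with little of its mRNA. Epithelial cells and macrophages of the lung make others of the list themselves. In a piece of whole lung, fewer cells of a type and less RNA per cell cannot be told apart.

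Libraries held 21357424 to 28321294 counts each. Bpifb1 was 0.217 to 1.26 CPM (the count scaled to the effective size of its library) in KO and 28.1 to 79.5 CPM in WT mice, so the genotype labels were borne out. The alveolar type 2 gene Sftpc (12634 to 17378 CPM), the club cell gene Scgb1a1 (21118 to 27505 CPM) and the alveolar type 1 gene Ager (2026 to 2742 CPM) were abundant in every mouse, as the labelled tissue requires. One library stood apart: KO replicate 5, labelled female, had 1.78 CPM of Xist, against 273 to 407 CPM in the 6 other females, and 0 counts of 4 Y-linked genes, against 2470 to 3441 in the males. Results that rest on this mouse are given with and without it.

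Loss of Bpifb1 was accompanied by no called change in any of the 10 genes. All 10 passed the filter on low counts, and in a quasi-likelihood model of edgeR that also held sex, 0 of 10 reached an adjusted p under 0.05, where 0.0222% of all 18024 tested genes did. Their adjusted p ran from 0.216 to 0.992. A pair of them, Lyz2 and Wfdc2, had an unadjusted p under 0.05, both lower in KO, as did 17% of all tested genes in either direction and 8.04% in this direction. The ranges of KO and WT mice overlapped in all 10 genes, where 1.88% of all tested genes had ranges that did not overlap. The fold change was below 0 in 7 of 10 (50.7% of all genes), and the median log2 fold change was -0.10, against -0.003 over all tested genes. DESeq2's Wald test and limma-voom also called 0 of the 10.

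**Figure D1:**
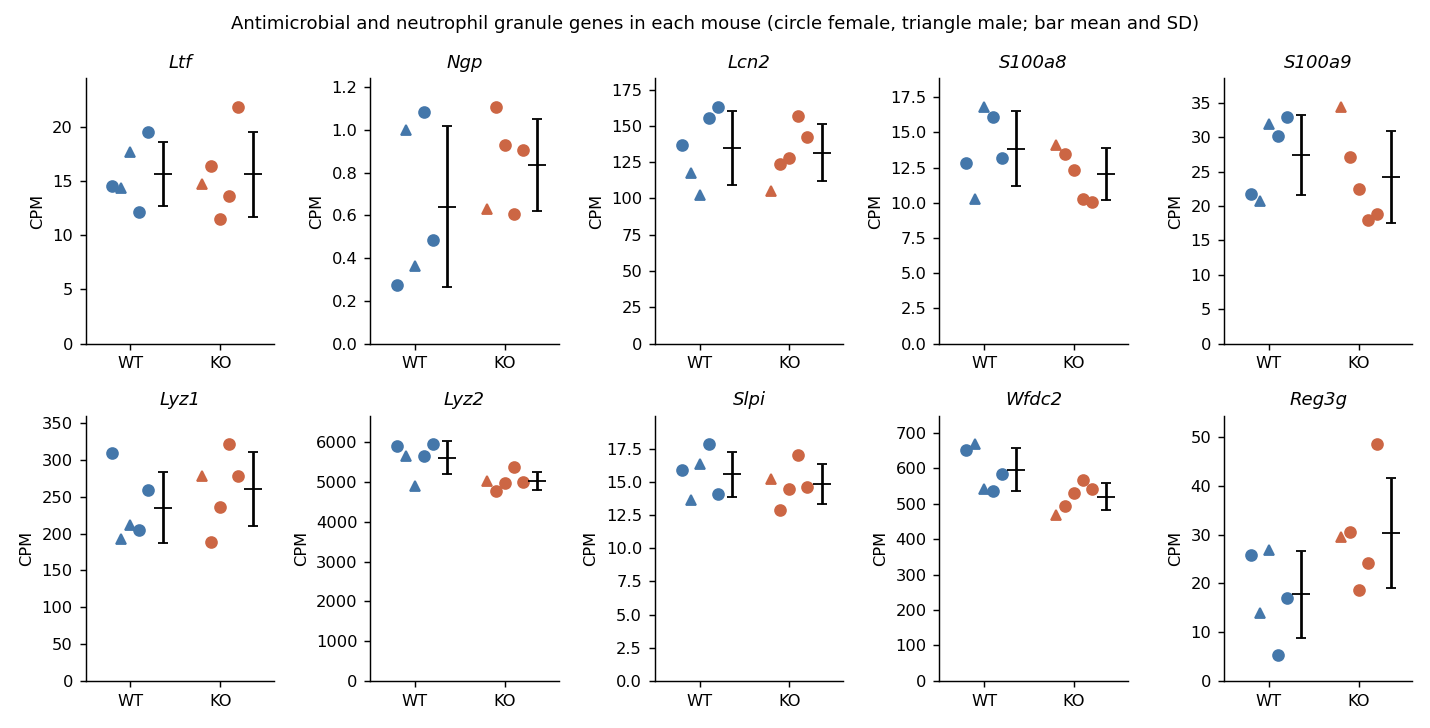
CPM of each of the 10 genes (vertical axes, linear and starting at 0) in 5 WT and 5 KO mice; circles are females, triangles are males, and the black bar gives the mean and SD of the genotype. The genotypes overlap in every panel, and Reg3g has the widest spread relative to its mean over all mice, from 5.38 to 48.5 CPM.

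The 10 genes differed greatly from each other in level, which is best compared per length of exon. On the scale of CPM per kilobase of exon, mean level over the 10 mice was 4043 ± 335 for Lyz2, 490 ± 55.3 for Wfdc2, 196 ± 38.3 for Lyz1, 50.8 ± 8.22 for Lcn2 and 49.5 ± 11.8 for S100a9 (SD, n = 10). Below these stood S100a8 with 18.6 ± 3.39, Slpi with 12.9 ± 1.32, Reg3g with 11.4 ± 5.50, Ltf with 4.53 ± 0.947 and Ngp with 0.604 ± 0.251 CPM per kilobase (SD, n = 10). Neighbours in this order had ranges that overlapped between Lcn2 and S100a9, S100a8 and Slpi, Slpi and Reg3g, and Reg3g and Ltf. The other neighbours did not overlap. Lyz2 and Wfdc2 headed the order, and the granule genes Ltf and Ngp were at its end. With the longest transcript in place of all exons the order was the same, but Lcn2 had 96.9 CPM per kilobase.

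**Figure D2:**
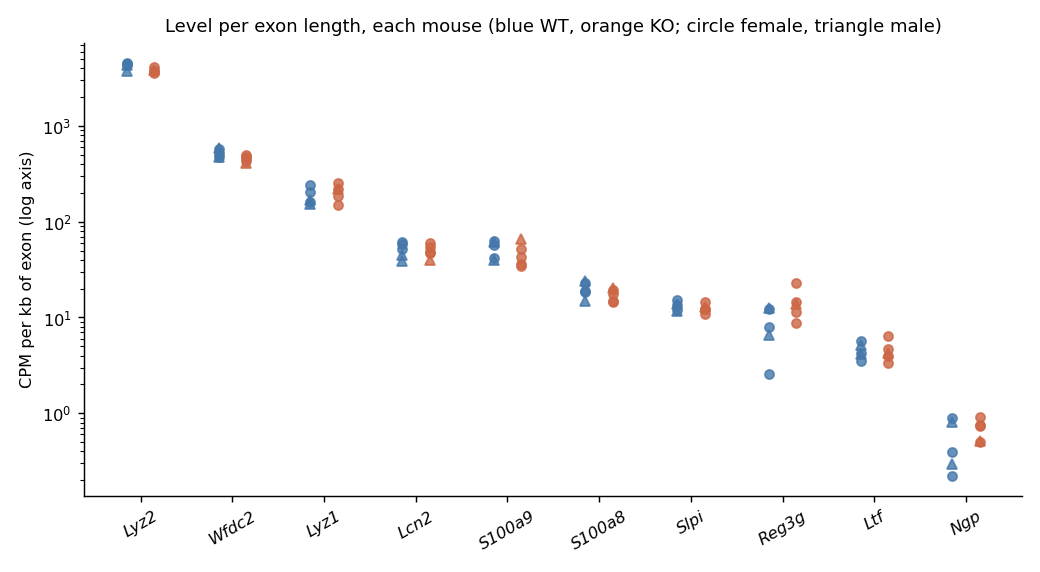
Level of each gene in CPM per kilobase of exon (logarithmic vertical axis) in each mouse, ordered by mean; blue points are WT, orange points KO, circles females and triangles males. Lyz2 is highest, from 3622 to 4522, and Ngp lowest, from 0.223 to 0.906.

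Among the granule genes, Ltf (ENSMUSG00000032496, chr9:111019271-111042767, plus strand) encodes lactoferrin. It measured 14.8, 16.4, 11.5, 13.6 and 21.9 CPM in KO replicates 1 to 5 and 14.6, 14.3, 17.7, 12.1 and 19.6 CPM in WT replicates 1 to 5. Both the highest and the lowest mouse were KO, and the means, 15.6 ± 3.91 in KO and 15.6 ± 2.96 in WT (SD, n = 5 each), differed by far less than their spread. The log2 fold change was -0.01 (95% interval -0.43 to 0.41, edgeR adjusted p 0.992). Without KO replicate 5, its highest mouse, the log2 fold change was -0.15.

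Ngp (ENSMUSG00000032484, chr9:110419747-110423012, plus strand) was the scarcest of the 10, with 6 to 30 counts per mouse. It stood above the floor of 3 counts, taken as the least that can be read as detected, in every mouse. Values were 0.629, 1.11, 0.929, 0.607 and 0.908 CPM in KO and 0.272, 1.0, 0.361, 1.08 and 0.483 CPM in WT replicates 1 to 5. The highest mouse was KO replicate 2, and WT replicates 1, 3 and 5 lay below every KO mouse. At this depth the 95% interval of the log2 fold change was wide, from -0.42 to 1.17, and included 0 (edgeR adjusted p 0.642). The fitted value of 0.37 became 0.12 without WT replicate 1 and 0.74 without WT replicate 4.

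Lcn2 (ENSMUSG00000026822, chr2:32384633-32388252, minus strand), whose lipocalin is stored in granules and also secreted by epithelium, measured 105, 124, 128, 157 and 143 CPM in KO and 137, 117, 102, 156 and 163 CPM in WT replicates 1 to 5. The genotypes overlapped almost entirely, with a log2 fold change of -0.12 (95% interval -0.28 to 0.05, edgeR adjusted p 0.448). The 3 lowest values belonged to the 3 males, which is taken up below.

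The calprotectin genes lie close together on chromosome 3. S100a8 (ENSMUSG00000056054, chr3:90668978-90670035, plus strand) measured 14.1, 13.4, 12.3, 10.3 and 10.02 CPM in KO and 12.8, 10.3, 16.8, 16.1 and 13.2 CPM in WT replicates 1 to 5. S100a9 (ENSMUSG00000056071, chr3:90692632-90695721, minus strand) measured 34.4, 27.1, 22.5, 18.0 and 18.9 CPM in KO and 21.7, 20.7, 31.9, 30.1 and 32.9 CPM in WT replicates 1 to 5. The same mice were high in both, namely WT replicates 3 to 5 and KO replicates 1 and 2, and those lowest in both were KO replicates 4 and 5 and WT replicate 2. The log2 fold change between genotypes was -0.19 for S100a8 (95% interval -0.50 to 0.12, edgeR adjusted p 0.521) and -0.16 for S100a9 (95% interval -0.64 to 0.32, edgeR adjusted p 0.744). Without single mice it ran from -0.28 (without KO replicate 1 or WT replicate 2) to -0.10 (without WT replicate 4) for S100a8. For S100a9 it ran from -0.39 (without KO replicate 1) to -0.03 (without WT replicate 5), and 0 of these values was called.

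For Ltf, Ngp, Lcn2 and the calprotectin genes S100a8 and S100a9, the 250 bases upstream of the RefSeq start are given. They run from 5′ to 3′ on the gene's own strand (build GRCm38.p6). RefSeq starts differ from the ends of the gene spans given above. The Lcn2 window therefore lies wholly within its span, and those of Ltf, Ngp and S100a8 lie partly within theirs. Capitals mark matches, on either strand, to letters bound by C/EBP factors (TTGCNNAA) or PU.1 (GAGGAA), regulators of granulocyte genes, and to the TATA box (TATAAA). In S100a8 a PU.1 match and the TATA box stand side by side as 1 run of capitals, and none of the matches overlaps another.
Ltf, chr9:111019042-111019291, plus strand: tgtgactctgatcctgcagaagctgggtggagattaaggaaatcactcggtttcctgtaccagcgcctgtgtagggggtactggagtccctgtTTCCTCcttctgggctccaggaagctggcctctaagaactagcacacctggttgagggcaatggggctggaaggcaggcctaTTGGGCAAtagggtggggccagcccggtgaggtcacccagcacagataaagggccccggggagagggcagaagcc
Ngp, chr9:110419558-110419807, plus strand: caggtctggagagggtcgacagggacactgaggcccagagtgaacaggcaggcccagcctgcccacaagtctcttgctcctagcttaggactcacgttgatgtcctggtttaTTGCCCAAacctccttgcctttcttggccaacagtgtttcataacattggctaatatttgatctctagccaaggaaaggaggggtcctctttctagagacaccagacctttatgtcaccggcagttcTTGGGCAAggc
Lcn2, chr2:32387740-32387989, minus strand: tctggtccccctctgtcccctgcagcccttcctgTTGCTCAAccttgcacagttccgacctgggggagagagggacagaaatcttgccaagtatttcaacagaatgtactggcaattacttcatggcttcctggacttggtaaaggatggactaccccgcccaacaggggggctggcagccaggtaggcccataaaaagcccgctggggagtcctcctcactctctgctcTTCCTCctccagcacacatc
S100a8, chr3:90668821-90669070, plus strand: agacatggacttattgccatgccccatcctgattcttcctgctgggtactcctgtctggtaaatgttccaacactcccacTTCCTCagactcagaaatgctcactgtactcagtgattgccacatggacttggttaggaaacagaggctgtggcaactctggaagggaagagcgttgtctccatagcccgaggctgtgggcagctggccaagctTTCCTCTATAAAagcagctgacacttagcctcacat
S100a9, chr3:90695722-90695971, minus strand: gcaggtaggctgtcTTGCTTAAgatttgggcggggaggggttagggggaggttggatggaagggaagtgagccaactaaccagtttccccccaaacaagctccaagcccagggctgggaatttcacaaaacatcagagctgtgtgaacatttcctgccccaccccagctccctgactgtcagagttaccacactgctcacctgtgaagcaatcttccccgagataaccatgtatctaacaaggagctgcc

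The C/EBP letters TTGCNNAA were found in the 250-base windows of 6 of the 10 genes (Ltf, Ngp, Lcn2, S100a9, Lyz1 and Slpi), and in 9.56% of 27018 mouse promoters of the same length. In Ngp they occurred at 138 and 11 bases before the start, in Ltf at 75 and in Lcn2 at 216. The PU.1 letters were in 3 of 10 (23.1% of promoters), the TATA box in 2 of 10, S100a8 and Reg3g (13%). The NF-kB motif searched (1.4% of promoters) and the AP-1 letters TGANTCA (6.87%) were in 0 of 10. Such matches describe letters in these windows only.

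Neutrophils themselves were followed by markers that are not among the 10 genes. The summed level of 10 neutrophil markers was 240 to 257 CPM in KO and 231 to 257 CPM in WT mice, and 0 of the 8 tested markers was called between genotypes. Slc7a11 (117 CPM on average) was the most abundant of these markers, and the other 9 summed to 122 to 139 CPM in KO and 107 to 136 CPM in WT mice. Most of that remainder came from Hdc (72.9 to 93.4 CPM). The chemokine receptor gene Cxcr2 (3.63 to 9.83 CPM) and the growth factor receptor gene Csf3r (19.1 to 32.8 CPM) were present in every mouse, whereas the surface marker Ly6g had 0 to 4 counts. The 7 markers of granulocyte precursors summed to 20.6 to 24.0 CPM in KO and 19.1 to 24.7 CPM in WT animals, nearly all of it from Prss57 (18.3 to 23.7 CPM). Of the rest, Prtn3 had 14 to 28 counts, Mpo 0 to 7, Elane 0 to 3, Ctsg 0 to 2, Fcnb 0 to 1 and Ms4a3 0 to 1. The cathelicidin gene Camp, a granule gene like Ngp, had 0 to 9 counts.

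S100a8 and S100a9 were the pair of genes that varied most closely together over the 10 mice (Pearson's r = 0.85, permutation p 0.00236; Spearman's rho = 0.84, permutation p 0.00403). Over the 45 pairs computed, 0 passed after adjustment, this pair having an adjusted permutation p of 0.106 (Pearson) and 0.181 (Spearman), and 2 pairs had an unadjusted p under 0.05. The correlation was 0.81 without the 2 mice farthest from the median of S100a8, 0.82 to 0.90 without any single mouse, and 0.84 after the mean of each genotype was subtracted. Per kilobase of exon, S100a9 exceeded S100a8 in every mouse, 2.33 to 3.24 times in KO and 2.25 to 3.32 times in WT mice. With the summed neutrophil markers r was -0.11 for S100a8 (permutation p 0.766) and -0.12 for S100a9 (permutation p 0.73). Both had an adjusted permutation p of 0.97 over 100 relations of genes to marker sums. Without Slc7a11 these values of r were 0.24 (permutation p 0.536) and 0.13 (permutation p 0.783), with the same adjusted p of 0.97. Spearman's rho with the 10 markers was -0.16 (permutation p 0.658) and -0.07 (permutation p 0.864), and r without the 2 mice farthest from the median of the marker sum was -0.26 and -0.27. Because the sum is mostly Slc7a11 and Hdc, it cannot show whether either gene followed the number of neutrophils.

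The lysozyme genes are neighbours on the minus strand of chromosome 10. Lyz2 (ENSMUSG00000069516, chr10:117277331-117282321), the lysozyme of macrophages and alveolar type 2 cells, measured 5015, 4767, 4975, 5384 and 5003 CPM in KO and 5897, 5655, 4905, 5652 and 5951 CPM in WT replicates 1 to 5. The other 4 WT mice lay above every KO mouse, while WT replicate 3 lay among the KO mice. Means were 5029 ± 223 CPM in KO and 5612 ± 418 CPM in WT (SD, n = 5 each). The log2 fold change was -0.17 (95% interval -0.31 to -0.03), with an unadjusted edgeR p of 0.0179 and an adjusted p of 0.217 over all genes. The exact permutation p was 0.0397, before any adjustment, and was computed for each of the 10 genes.

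Lyz1 (ENSMUSG00000069515, chr10:117287797-117292868), known as the lysozyme of Paneth cells of the gut, measured 278, 188, 236, 321 and 278 CPM in KO and 309, 193, 211, 205 and 259 CPM in WT replicates 1 to 5. High and low mice occurred in both genotypes (log2 fold change 0.13, 95% interval -0.26 to 0.51, edgeR adjusted p 0.751). Lyz2 exceeded Lyz1 per kilobase of exon 16.1 to 24.3 times in KO and 18.3 to 28.2 times in WT mice. The genes are near-copies, and 195 of the 1214 stretches of 50 bases in the Lyz1 transcript, the length of the reads, also occur in Lyz2, so that 16.1% of Lyz1 positions cannot be assigned by sequence. Of the Lyz2 stretches, 15.4% also occur in Lyz1. The deposited Lyz1 counts were fractional in 100% of mice and those of Lyz2 in 0%. How shared reads were divided is not given in the sources used here, so values of both genes and their ratio are uncertain. For the 8 other genes 0 stretches of 50 bases were shared with a transcript of another gene.

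The likeness extends upstream of the RefSeq starts, although part of the Lyz2 window lies within the gene span given above. Of the 130 bases before the start, 120 (92.3%) were identical in Lyz1 and Lyz2 without gaps, although the genes differ in level. Both windows are shown from 5′ to 3′ on the minus strand (RefSeq, GRCm38.p6), with the bases that differ in capitals.
Lyz1, chr10:117292869-117292998: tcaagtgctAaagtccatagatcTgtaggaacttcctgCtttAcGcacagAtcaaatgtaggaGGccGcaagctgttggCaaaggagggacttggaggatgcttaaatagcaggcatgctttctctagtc
Lyz2, chr10:117282273-117282402: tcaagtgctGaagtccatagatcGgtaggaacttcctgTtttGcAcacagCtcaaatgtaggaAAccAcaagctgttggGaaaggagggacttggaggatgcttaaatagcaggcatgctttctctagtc

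The whey acidic protein genes lie on chromosome 2. Wfdc2 (ENSMUSG00000017723, chr2:164562413-164568510, plus strand), a product of airway and alveolar epithelium, measured 468, 495, 531, 567 and 541 CPM in KO and 653, 668, 542, 537 and 583 CPM in WT replicates 1 to 5. The 3 highest mice were WT, and WT replicates 3 and 4 lay among the KO mice. The means were 520 ± 39.1 CPM in KO and 597 ± 61.4 CPM in WT (SD, n = 5 each). The log2 fold change was -0.21 (95% interval -0.38 to -0.04, unadjusted edgeR p 0.0175, adjusted p 0.216), and the exact permutation p, unadjusted, was 0.0476. Slpi (ENSMUSG00000017002, chr2:164354070-164389095, minus strand), the elastase inhibitor, was among the steadiest of the 10, with 15.2, 12.8, 14.4, 17.0 and 14.6 CPM in KO and 15.9, 13.7, 16.3, 17.8 and 14.1 CPM in WT replicates 1 to 5. The genotypes overlapped throughout, and the log2 fold change was -0.08 (95% interval -0.28 to 0.12, edgeR adjusted p 0.71), or -0.13 to -0.01 without single mice (-0.01 without WT replicate 4).

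Beside the lower values of Lyz2 and Wfdc2 in KO mice stood the markers of alveolar type 2 cells, a cell type that expresses both. Of 9 such markers 0 were called, and their median log2 fold change was -0.15. An unadjusted edgeR p under 0.05 with lower values in KO was found for 5 (Sftpc, Sftpb, Sftpa1, Napsa and Etv5), and for 8.04% of all tested genes. The remaining markers had log2 fold changes near 0: Abca3 0.06, Lamp3 0.01, Slc34a2 -0.04 and Cxcl15 -0.08. Their summed level was 24837 to 28218 CPM in KO and 25808 to 30415 CPM in WT mice. Over the 10 mice the correlation of that sum with Lyz2 did not pass adjustment (r = 0.89, permutation p 0.00214, adjusted over 100 relations 0.0713). Spearman's rho was 0.77 (permutation p 0.0124, adjusted 0.31), and r was 0.86 without the 2 farthest mice. The correlation of the same sum with Wfdc2 passed by Pearson's r (r = 0.86, permutation p 0.0007, adjusted 0.035). It did not pass by Spearman's rho (0.78, permutation p 0.00985, adjusted 0.31), and r was 0.69 without the 2 farthest mice. The summed club cell markers, 25462 to 28557 CPM in KO and 25930 to 33264 CPM in WT mice, varied with Wfdc2 as well (r = 0.85, permutation p 0.00056, adjusted 0.035; Spearman's rho 0.79, permutation p 0.00921, adjusted 0.31; r = 0.63 without the 2 farthest mice). Markers of alveolar macrophages, which also express Lyz2, summed to 542 to 739 CPM in KO and 636 to 768 CPM in WT animals, with 0 of 10 called. The correlation of this sum with Lyz2 did not pass either (r = 0.68, permutation p 0.0377, adjusted 0.471). Spearman's rho was 0.70 (permutation p 0.0298, adjusted 0.381), and r was 0.64 without the 2 farthest mice. These correlations pool both genotypes, so a difference between KO and WT mice enters them. Between Lyz2 and Wfdc2 r was 0.75, and 0.54 after the mean of each genotype was subtracted. The part of these cells in the lower values was not tested.

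Reg3g (ENSMUSG00000030017, chr6:78466269-78468872, minus strand) had the largest fitted difference and the widest spread relative to its mean over all mice. It measured 29.5, 30.6, 18.6, 24.1 and 48.5 CPM in KO and 25.8, 13.9, 26.8, 5.38 and 16.9 CPM in WT replicates 1 to 5. The highest value was that of KO replicate 5 and the lowest that of WT replicate 4, a ratio of 9.02, while WT replicates 1 and 3 lay within the KO range. Means were 30.3 ± 11.3 CPM in KO and 17.7 ± 8.86 CPM in WT (SD, n = 5 each). The log2 fold change of 0.82 had a 95% interval from -0.26 to 1.90, which includes 0 (edgeR adjusted p 0.409, exact permutation p 0.0714 unadjusted). Without KO replicate 5 the KO mean was 25.7 ± 5.50 CPM (SD, n = 4) and the log2 fold change 0.59 (edgeR adjusted p 0.582). Without WT replicate 4 the log2 fold change was 0.53 (edgeR adjusted p 0.485). The summed markers of goblet and gland cells ran from 173 to 472 CPM in KO and from 174 to 462 CPM in WT mice, and their correlation with Reg3g was r = 0.53 (permutation p 0.111, adjusted over 100 relations 0.744; Spearman's rho 0.48, permutation p 0.167, adjusted 0.759; r = 0.32 without the 2 farthest mice). With Ltf the same sum had a higher r of 0.80 (permutation p 0.00614, adjusted 0.153), which did not pass. Spearman's rho with Ltf was 0.85 (permutation p 0.00281, adjusted 0.281). Most of the goblet and gland sum came from Bpifa1 (27.4 to 288 CPM), Scgb3a1 (64.2 to 159 CPM) and Muc5b (41.7 to 128 CPM). The gland markers Dmbt1 and Lpo had 0 to 6 and 0 to 2 counts. The part of goblet and gland cells in the spread of Reg3g was not tested.

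**Figure D3:**
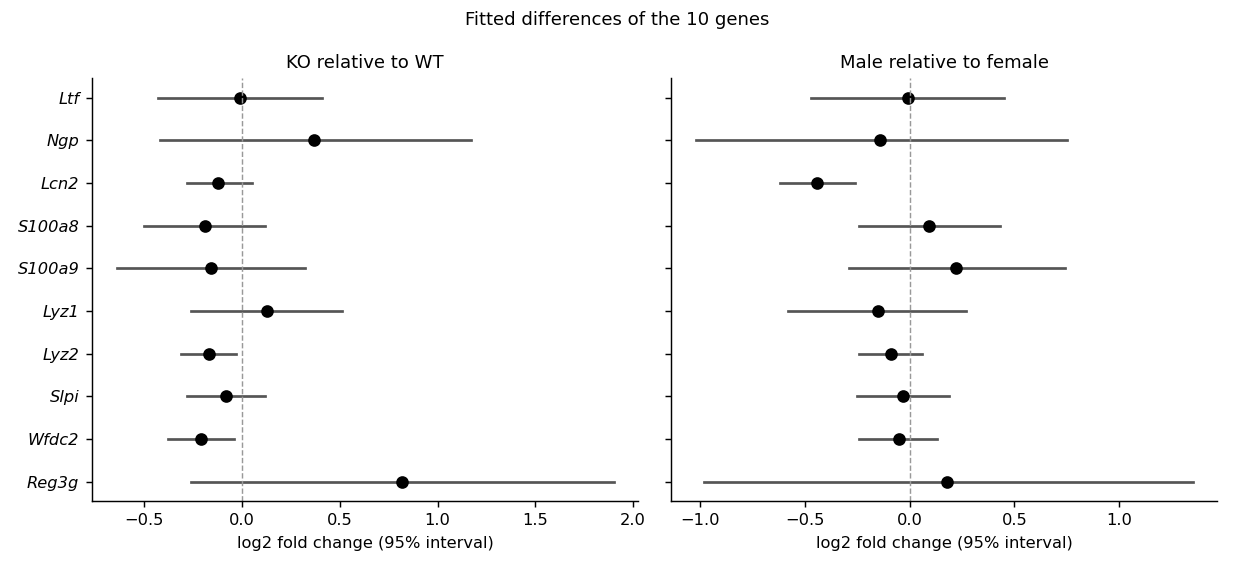
Fitted log2 fold change (point) and 95% interval (line) of each gene, for KO relative to WT mice at left and males relative to females at right, over all 10 mice. At left 8 of 10 intervals include 0, those of Lyz2 and Wfdc2 lying just below it; at right the interval of Lcn2, from -0.62 to -0.26, is the one that lies away from 0.

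Males and females were compared in the same model, which gave the one called difference among the 10 genes. Lcn2 was lower in males, with 105 CPM in the KO male and 117 and 102 CPM in the WT males, than in the 7 females, whose lowest, median and highest values were 124, 143 and 163 CPM. No female reached the male range. The separation was present within each genotype: the 4 KO females measured 124 to 157 CPM and the 3 WT females 137 to 163 CPM. Means were 108 ± 8.0 CPM in 3 males and 144 ± 15.2 CPM in 7 females (SD), a log2 fold change of -0.44 (SE 0.08, 95% interval -0.62 to -0.26, edgeR adjusted p 0.0319). An exact permutation test gave p 0.00833, which is the smallest possible with 120 ways to choose 3 of 10 mice; it is unadjusted and was computed for each of the 10 genes.

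Lcn2 was 1 of 10 genes called by sex, where 0.583% of all tested genes were, and it was 1 of 10 whose sexes did not overlap, where 4.81% of all genes did not. At an unadjusted p under 0.05 it was also 1 of 10, against 15.1% of all genes, and 7 of 10 were lower in males, against 51.7%. The call rested on few males. The adjusted p was 0.161 without KO replicate 1, the one KO male, 0.0751 without WT replicate 2, 0.127 without WT replicate 3, 0.0598 without KO replicate 5, the female with little Xist, and 0.0675 without WT replicate 5, while the log2 fold change stayed between -0.47 and -0.38. Without a genotype covariate the adjusted p was 0.0892. The other 9 genes had adjusted p from 0.604 to 0.986 for sex, and 0 of the genes in the related lists described next were called by sex. Summed neutrophil markers, mostly Slc7a11 and Hdc, were 231 to 250 CPM in males and 234 to 257 CPM in females. Scarcer neutrophil markers went both ways, with log2 fold changes of -0.70 for Retnlg (edgeR adjusted p 0.0568), 0.31 for Csf3r (0.385) and 0.61 for Cxcr2 (0.283). The part of neutrophils in the Lcn2 difference was not tested. Summed alveolar type 2 markers were 24850 to 30128 CPM in males and 24837 to 30415 CPM in females.

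**Figure D4:**
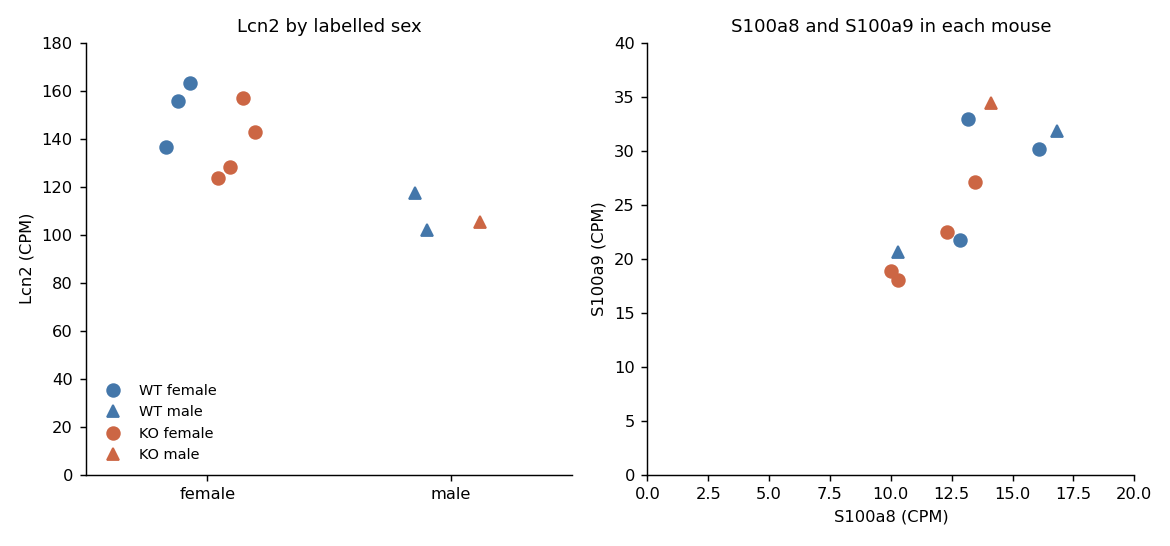
Left, Lcn2 in CPM by labelled sex; right, S100a9 against S100a8 in CPM, each point 1 mouse (blue WT, orange KO, circles females, triangles males; axes linear from 0). The 3 males lie at 102 to 117 CPM of Lcn2, below all 7 females, and S100a8 and S100a9 rise together over the mice of both genotypes.

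Other genes of the same defence were read from lists of related genes. Of 30 neutrophil granule and effector genes 19 were tested and 0 were called between genotypes, with 2 higher and 2 lower at an unadjusted edgeR p under 0.05 (median log2 fold change -0.03). The smallest p belonged to Serpinb1a, an inhibitor of neutrophil proteases, with KO at 24.9 ± 1.37 and WT at 28.6 ± 0.951 CPM (SD, n = 5 each) and a log2 fold change of -0.21 (edgeR adjusted p 0.134). The integrin gene Itgam (log2 fold change 0.21, edgeR adjusted p 0.194) and the neutrophil surface gene Cd177 (log2 fold change 0.39, edgeR adjusted p 0.209) followed. In 7 of the 30 no mouse had more than 3 counts.

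Of 35 secreted epithelial defence genes 17 were tested, and 1 was called, where 0.0222% of all 18024 tested genes were. The list was drawn up with earlier results of these data known, so a call within it is a description only. This was Chia1, which encodes an acidic chitinase and was lower in KO, at 46.9 ± 5.36 against 81.0 ± 5.37 CPM (SD, n = 5 each). Its log2 fold change was -0.76 (edgeR adjusted p 2.93e-04). Pigr, the receptor that carries antibodies across epithelium, had 77.4 ± 8.48 CPM with KO and 53.6 ± 4.67 with WT (SD, n = 5 each) and did not pass (edgeR adjusted p 0.0674), nor did the surfactant protein gene Sftpa1 (log2 fold change -0.23, edgeR adjusted p 0.158). Unadjusted, 6 were lower and 1 higher at p under 0.05. The beta-defensin genes Defb1, Defb2, Defb4 and Defb14, the lectin genes Reg3a and Reg3b, and Lpo, which encodes lactoperoxidase, had at most 3 counts in any mouse.

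Of 34 inducing cytokines and regulators 33 had a matching symbol and 22 were tested, with 0 called. Il1b, a cytokine that induces several of the 10 genes, had 8.18 ± 0.924 CPM with KO and 6.37 ± 1.13 with WT (SD, n = 5 each). Its log2 fold change was 0.37 (edgeR adjusted p 0.193). The transcription factor genes Spi1, which encodes PU.1, and Stat3 had log2 fold changes of -0.16 (edgeR adjusted p 0.235) and 0.11 (edgeR adjusted p 0.295). The inducers Il17a, Il17f, Il22 and Csf3 had at most 3 counts in any mouse. Of 13 receptors and protease targets 11 were tested and 0 called; Ager, the receptor for calprotectin, had a log2 fold change of -0.12 (edgeR adjusted p 0.361). Plscr1 (-0.15) and Anxa2 (-0.10), whose proteins bind Slpi, did not pass either (edgeR adjusted p 0.305 and 0.33).

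The genes whose levels ran most like each of the 10 over the mice were sought among 12866 others with a mean of at least 5 CPM, as a description. For Wfdc2 they were Cox5a (r = 0.99), a subunit of cytochrome oxidase, and Cbr2 (r = 0.97), a carbonyl reductase abundant in lung. For Lyz2 they were Etfb and Slc52a3 (r = 0.94 each), for Lyz1 Crat (0.95) and Gid8 (0.88), and for Lcn2 Lss (0.93), which encodes lanosterol synthase of the cholesterol pathway, and Tmem8 (0.92). Hepacam2 (0.93) and 4930430F08Rik (0.90) ran most like S100a8, Calu and Fbxl5 (0.92 each) most like S100a9, and 9330151L19Rik (0.91) and Pcsk6 (0.90) most like Ltf. For Reg3g these were Sorbs2 (0.91) and Fastkd1 (0.86), for Slpi Sirpa (0.88) and Bicc1 (0.87), and for Ngp Gm26880 and Trim26 (0.89 each). All are the highest of many values of Pearson's r over the same 10 mice.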

How the data were processed

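The authors deposited 1 table of estimated counts per gene for the 10 mice, not scaled between samples. Per the submitters' processing notes, FastQC, MultiQC, STAR 2.6.0 and Salmon 0.9.1 and the builds mm10 and GRCm38 were named, without role or order. Annotation, filters and strand of counting are not given in the sources used here. Stranded mRNA libraries were read as single reads of 50 bases, per the labels' protocols. Identifiers were matched to GENCODE M21 (47281 of 47333), and 30.1% of values above 0 lay over 0.01 from a whole number.

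Counts were rounded, filtered (filterByExpr by genotype, minimum count 10, total 15, leaving 18024 genes) and scaled by TMM. Genotype and sex were tested in 1 model by edgeR's robust quasi-likelihood test (edgeR 4.0.16, R 4.3.3) with Benjamini-Hochberg adjustment over all genes, called at an adjusted p under 0.05; tests were two-sided. Alternatives included DESeq2 1.42.0 and limma 3.58.1. The scripts were tested on simulated data. Correlations used log2 CPM (prior count 2) and 100000 resamples, and marker lists were summed in CPM. Replicate numbers follow sample order and pair no mice. Reads are not independent molecules, so the floor of 3 counts covers counting error only. For genotype and sex, p-values set a difference against the spread between these mice. Genes named from related lists were the 3 with the smallest p in each, any with an adjusted p under 0.1, and the 2 most correlated with each of the 10; counts of scarce genes and marker genes were named after their values were seen. The 10 genes and the lists were chosen with earlier results of these data known.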

Additional observations from a re-analysis of the deposited data

Results flagged for a closer look

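Values of 11 genes (the 10 and Bpifb1) within KO, WT and female mice were examined by Dixon's test, 33 sets in all, of which chance would mark about 1.65. One mouse stood out: WT replicate 3 had 4905 CPM of Lyz2, far below the 5652 to 5951 CPM of the other WT mice and within the KO range. Without this mouse the log2 fold change of Lyz2 was -0.20 (edgeR adjusted p 0.123).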

How the results depend on the processing

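In 19 alternatives 0 of the 10 genes were called between genotypes. Over all genes the 4 calls became 57 at an adjusted p under 0.1, 50 with no filter, 346 by DESeq2, 2 by limma-voom and 2 to 18 without single mice (18 without WT replicate 3; 2 without KO replicate 2, 4 or 5 or WT replicate 1). Bpifb1 kept its direction (-6.97 to -6.35 without single mice) but lost its call in females alone (-6.42), by limma-voom (-6.72) and without 7 single mice. The fold change of Ltf turned positive in females alone (0.04) and ran from -0.15 to 0.13 without single mice; that of Lyz1 turned negative in females alone (-0.0096) and ran from -0.0092 to 0.25 without single mice. Over all alternatives the other 8 kept their direction; without single mice Lcn2 ran from -0.16 to -0.08, Lyz2 from -0.21 to -0.15, Wfdc2 from -0.26 to -0.15 and Reg3g from 0.53 to 1.11.

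Between the sexes the 105 calls became 351 at an adjusted p under 0.1, 197 with no filter, 41 with no genotype covariate, 436 by DESeq2 and 0 to 195 without single mice (0 without KO replicate 1, 43 without WT replicate 2, 46 without KO replicate 2, 195 without WT replicate 4). Lcn2, the 1 of the 10 called, was lost (0 called) with no genotype covariate (-0.41) and without 5 single mice, its fold change running from -0.47 to -0.38. For the other genes no call was made. Some sex differences changed sign: with no genotype covariate Reg3g (-0.05) and Wfdc2 (0.0031), by limma-voom Ltf (0.0074). Without single mice the ranges were -0.11 to 0.10 for Ltf, -0.04 to 0.28 for S100a8, -0.10 to 0.44 for S100a9, -0.08 to 0.04 for Slpi, -0.12 to 0.43 for Reg3g, -0.60 to 0.16 for Ngp and -0.16 to 0.03 for Wfdc2. With genotype means subtracted 2 of 45 pairs of genes passed, against 0. The cause of these changes was not tested. Ngp, at 6 to 30 counts, is limited by depth and was not tested at a mean CPM of at least 1. No paired analysis was possible because replicate numbers only follow sample order.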

Other observations

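Wfdc2 ran against the calprotectin genes once the mean of each genotype was subtracted. The pairs that then passed over the 45 tested were S100a8 with Wfdc2 (r = -0.92, adjusted permutation p 0.0169) and S100a9 with Wfdc2 (r = -0.91, adjusted permutation p 0.0169), while S100a8 with S100a9 had r = 0.84 (adjusted permutation p 0.0669). Without the subtraction, S100a9 and Wfdc2 had r = -0.48 (permutation p 0.167, adjusted 0.753). Each genotype held 5 mice, too few for a correlation within it.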
